A study of Mus musculus with 17 samples.

Results

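Short-term hematopoietic stem cells (ST-HSC) were compared with megakaryocyte-erythroid progenitors (MEP), to ask which erythroid and megakaryocyte mRNAs were already present in the stem cells and which were gained in the progenitors. All 3 arrays labelled ST-HSC and all 3 labelled MEP were used, 6 of the 17 arrays of 6 populations in the series. Both populations came from bone marrow of female, young adult C57Bl/6 mice. Marrow was depleted of mature lineage cells and enriched for c-kit, and the populations were then separated by flow cytometry on surface proteins, with several mice pooled for a replicate. ST-HSC were collected in the stem cell sort and MEP in a separate myeloid progenitor sort, so the sort and the population cannot be told apart. No treatment was given. Each population was read on single-color Agilent mouse arrays of total RNA, with 1 ST-HSC array and 1 MEP array without a replicate number, ST-HSC arrays numbered 2 and 3 and MEP arrays numbered 1 and 2.

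MEP is the stage at which the megakaryocyte and the red cell lineages part. In red cell formation, Gata1 with its cofactor Fog1 (Zfpm1), the Scl complex and Klf1 switch on the erythropoietin receptor, iron uptake, heme synthesis, globins and the proteins of the red cell membrane. In megakaryocytes, Gata1 works beside Fli1, Runx1 and other Ets and Runt factors on the platelet adhesion receptors and the contents of platelet granules. Stem cells are known to carry low levels of transcripts of several lineages.

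The values are log2 spot intensities after quantile normalization over the 17 arrays, with 1 probe for each of 28090 gene names. A gene was called when its MEP minus ST-HSC difference had a limma adjusted p under 0.05 in a fit of all 17 arrays. Of the 28090 gene names, 15.1% were called higher in MEP and 14.5% lower, 29.6% in either direction, and the median difference was 0.01. The 3 MEP arrays all lay above the 3 ST-HSC arrays in 23.5% of gene names and all below them in 17.8%. An array can measure a gene only where its spot is well above background. This was so for 19491, 20015 and 15836 gene names on the ST-HSC arrays numbered 2 and 3 and unnumbered, and for 13596, 13837 and 14124 on the MEP arrays numbered 1 and 2 and unnumbered. The numbered ST-HSC and the numbered MEP arrays lay on different slides that were scanned in different periods, so for these arrays scan period and population cannot be told apart. The unnumbered ST-HSC and MEP arrays lay on 1 slide, and the difference between them is given as the slide pair. The pair is 2 of the 6 arrays compared, so its sign is not independent of the call, and 99.2% of the genes called over all arrays had the same sign in it. In these bulk samples, fewer cells of a type and less RNA per cell cannot be told apart.

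Most erythroid mRNAs were measurable in ST-HSC and were higher in MEP, while most megakaryocyte mRNAs were measurable in ST-HSC and were lower in MEP. The 4 erythroid lists held 70 genes, of which 68 were on the array. In MEP 44 of them were higher, 5 were lower and 19 were not called, and the median difference of the 68 was 1.80 on the log2 scale. The 2 megakaryocyte lists held 53 genes with 50 on the array, of which 2 were higher in MEP, 31 were lower and 17 were not called, with a median difference of -2.28. Within the slide pair the medians were 1.91 for the erythroid and -2.47 for the megakaryocyte genes, against 0.10 for all genes. All 49 called erythroid genes and all 33 called megakaryocyte genes had the same sign within the slide, a share close to that of all called genes and not independent of the calls. Over every alternative that was run, between 40 and 49 erythroid genes were higher and between 29 and 35 megakaryocyte genes were lower, although the megakaryocyte median was -1.01 after normexp background correction.

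**Figure D1:**
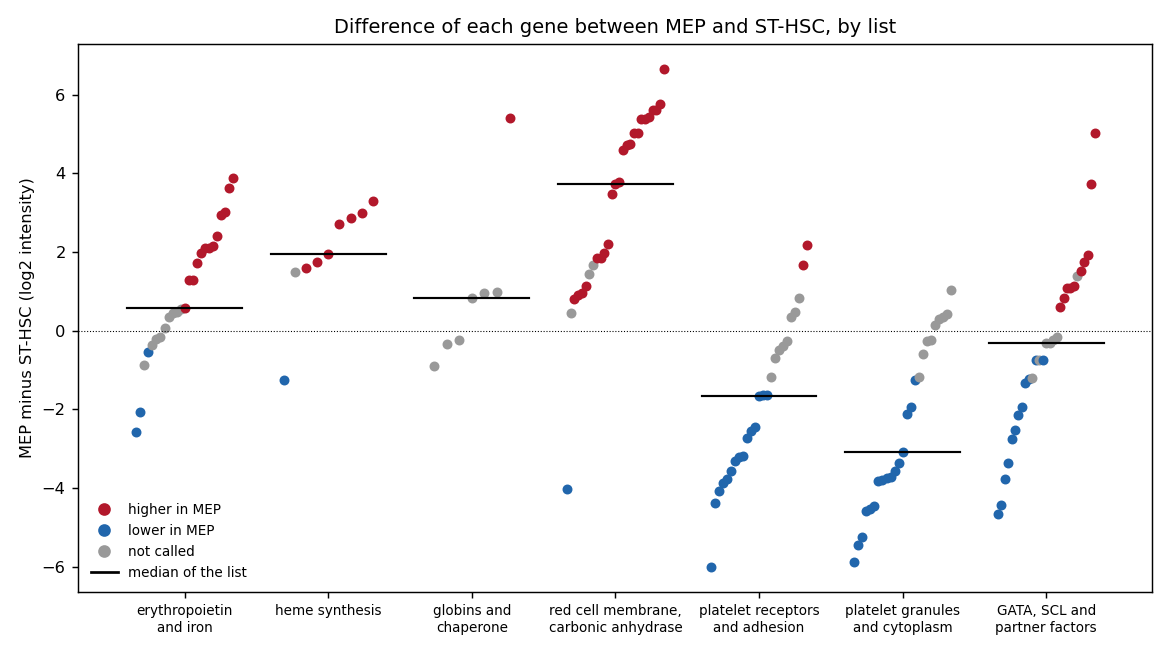
Difference in log2 intensity between MEP and ST-HSC (vertical axis, MEP minus ST-HSC, 3 arrays each) for every gene on the array of the 4 erythroid lists, the 2 megakaryocyte lists and the list of GATA, SCL and partner factors. Each point is a gene, colored by its call at a limma adjusted p under 0.05, and the black bar is the median of the list; the red cell membrane list has its median at 3.72 and the platelet granule list at -3.09.

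Presence in the stem cells was read from the background calls alone. Of the 68 erythroid genes, 60 were well above background on all 3 ST-HSC arrays, against 54.5% of all gene names. Of these 60, 39 were higher in MEP, 5 were lower and 16 were not called. Another 4 erythroid genes that were higher in MEP were above background on 1 or 2 ST-HSC arrays, among them Steap3, Sptb and Epb42. In MEP 1 erythroid gene was gained, with all 3 MEP arrays and no ST-HSC array above background, a class that held 0.117% of all gene names. Of the 50 megakaryocyte genes, 44 were above background on all ST-HSC arrays, and none was gained. The 4 megakaryocyte genes that were called lower, with every ST-HSC array and no MEP array above background, were P2rx1, Thbs1, Mmrn1 and Pdgfb, in a class with 2.64% of all gene names. On the shared slide alone, 63 erythroid genes were above background in ST-HSC and 66 in MEP, and 44 megakaryocyte genes were above background in ST-HSC and 33 in MEP.

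Among 29 regulators of both lineages, 10 were higher in MEP, 12 were lower and 7 were not called, and all 29 were above background on the 3 ST-HSC arrays. Gata1, the factor both lineages require, was at 8.24, 8.33 and 8.50 on the ST-HSC arrays and at 12.30, 12.23 and 11.72 on the MEP arrays numbered 1, numbered 2 and unnumbered. The groups did not overlap, and the lowest MEP array lay above the highest ST-HSC array by more than either group's own spread. Gata1 was 13.2-fold higher in MEP, a log2 difference of 3.73 with a 95% interval of 2.87 to 4.58 (limma adjusted p = 1.07e-05). Its probe lies on chromosome X of mm9, 7536849 to 7536908.

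Klf1, the activator of the adult globin and red cell membrane genes, was at 7.08, 8.16 and 8.45 in ST-HSC and at 12.86, 12.83 and 13.04 in MEP. It was 32.4-fold higher in MEP (log2 difference 5.02, 3.85 to 6.19, limma adjusted p = 1.21e-05), the largest increase among the regulators, with its probe on chromosome 8 of mm9, 87428881 to 87428940. The other regulators that rose most were Gfi1b, a repressor needed in both lineages, at 3.77-fold, the Scl complex bridge Ldb1 at 3.35-fold and Klf3 at 2.87-fold. Zfpm1 and Tal1, which encodes Scl, were already bright in ST-HSC and rose by 0.83 and 0.60 on the log2 scale, the latter by 0.92 with scan period as a block. Their calls were lost when single arrays were left out. For Zfpm1 these were the unnumbered ST-HSC array (adjusted p = 0.0563) and either numbered MEP array (0.0561 and 0.0521), and for Tal1 the ST-HSC array 2 (0.0870) and either unnumbered array (0.0690 without the ST-HSC array, 0.100 without the MEP array). Lmo2, the partner that links Tal1 to Gata1, differed by -0.17 (95% interval -0.74 to 0.40, limma adjusted p = 0.678), with a sign that turned under scaling to the 75th percentile.

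Fli1, Erg, Meis1 and Cbfb were among the 12 regulators that were lower in MEP. Fli1, the Ets factor of the megakaryocyte branch, was at 12.51, 12.39 and 12.53 in ST-HSC and at 8.22, 8.87 and 8.99 in MEP. It was 13.8-fold lower in MEP (log2 difference -3.78, -4.42 to -3.15, limma adjusted p = 7.22e-07). Its Ets relative Erg was 21.4-fold lower, and Cbfb, the binding partner of the Runx factors, was 6.73-fold lower. Meis1, a homeobox factor of stem cells and megakaryocytes, was above background on no MEP array and was at least 25.5-fold lower there. A bound of this kind sets the bright group against the dimmest signal that still counted as above background, or the dim probe's own signal where that was higher.

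Gata2, the factor that precedes Gata1 in stem and progenitor cells, was at 12.84, 12.79 and 12.42 in ST-HSC and at 10.41, 10.64 and 10.56 in MEP. It was 4.42-fold lower (log2 difference -2.15, -2.47 to -1.82, limma adjusted p = 3.38e-07), so that Gata2 and Gata1 differed in opposite directions between the same arrays. Nfe2, a factor of platelet release that also acts in red cells, was 2.34-fold lower, and its adjusted p was 0.0522 after scaling to the 75th percentile. Runx1 was 1.69-fold lower (adjusted p = 0.0388). The Runx1 call was lost when any array but the unnumbered ST-HSC array was left out, with adjusted p of 0.122 and 0.1385 without the ST-HSC arrays 2 and 3, and of 0.130, 0.0613 and 0.0546 without the unnumbered MEP array and the MEP arrays 1 and 2.

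**Figure D2:**
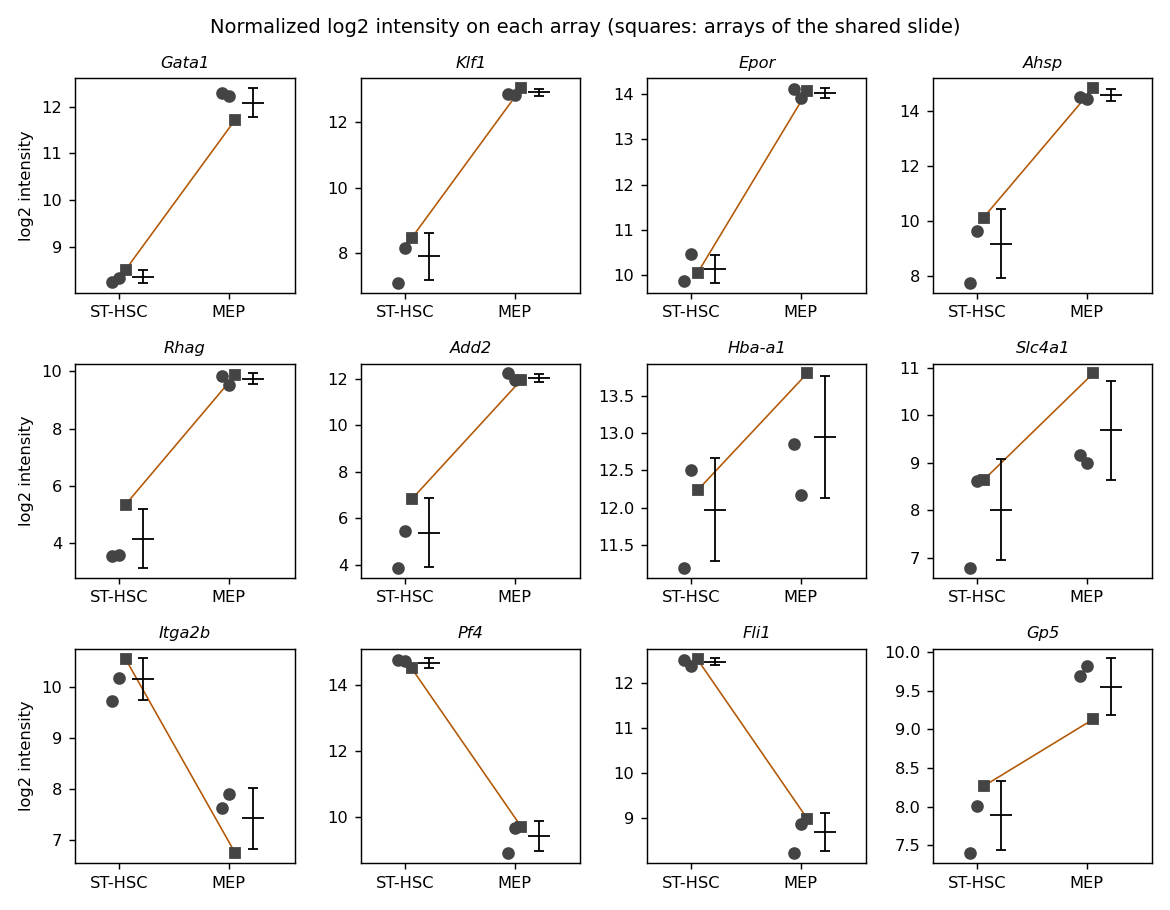
Normalized log2 intensity (vertical axis) of 12 genes on the 3 ST-HSC and the 3 MEP arrays. Squares joined by a line are the unnumbered arrays on 1 slide, and the bar beside the points gives the mean and SD of 3 arrays; Gata1, Klf1, Epor, Ahsp, Rhag and Add2 are separated in 1 direction and Itga2b, Pf4 and Fli1 in the other, while Hba-a1 overlaps.

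Factors of the Gata family recognize the letters AGATAA, and the windows around this motif in promoters of erythroid and platelet genes are printed to show where it lies in genes that moved differently. The promoters are RefSeq windows of GRCm38.p6 around the start of a gene, nearly all of it upstream, searched on both strands, and 12.7% of the 27025 genes with such a window hold the motif in any of their windows. The sequences read 5' to 3' on the strand of the gene, with AGATAA or its reverse complement TTATCT in capitals.
Epor, chr9:21963616-21963639, minus strand: ggctgtagcTTATCTgtccccagc
Steap3, chr1:120271111-120271134, minus strand: cggagagtgTTATCTccctccagt
Kel, chr6:41704367-41704390, minus strand: gagaaactaAGATAAaagaggagg
Rhd, chr4:134864484-134864507, plus strand: ggcagcctgAGATAAgacctttgg
Alas2, chrX:150547322-150547345, plus strand: ctttgctttTTATCTttagcagag
P2rx1, chr11:72998895-72998917, plus strand: cagtagctTTATCTctggccctg
Counted from the first base of the gene as 0, the motif begins at -54 in Epor, -45 in Steap3, -56 in Kel, -43 in Rhd, -86 in Alas2 and -242 in P2rx1. Epor, Steap3, Kel and Rhd were higher in MEP, Alas2 was not called and P2rx1 was lower. Among windows not printed, the motif begins at 4 in Cpox and -226 in Epb42, both higher in MEP. It begins at 36 in Pf4 and 37 in Clec1b, both lower. The printed windows therefore do not show a position that goes with direction. A promoter was found for 29 of the 44 erythroid genes that were higher in MEP, too few for a share of the list to be read. A match of letters is a description of the window and not a site.

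Of 25 genes of erythropoietin signalling and iron handling, 13 were higher in MEP, 3 were lower and 9 were not called, with a median difference of 0.56. Epor, the erythropoietin receptor, was at 9.88, 10.48 and 10.05 in ST-HSC and at 14.10, 13.91 and 14.07 in MEP. All 3 ST-HSC arrays were thus above background for Epor, and all 3 lay at least 3 log2 units below the MEP arrays. Epor was 14.8-fold higher in MEP (log2 difference 3.89, 3.23 to 4.55, limma adjusted p = 7.87e-07).

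Several genes of iron uptake and of mitochondrial iron and heme transport were higher in MEP as well. Tfrc, the transferrin receptor, was at 9.06, 9.16 and 8.93 in ST-HSC and at 11.05, 11.11 and 11.31 in MEP, a rise of 4.30-fold (limma adjusted p = 7.27e-07). Steap3, the endosomal ferrireductase of red cell precursors, was above background on 2 of 3 ST-HSC arrays and was higher in MEP (limma adjusted p = 1.33e-05). The mitochondrial carrier Slc25a38, which brings in glycine for heme, was 8.10-fold higher, and the transporters Abcb6 and Abcb10 were 7.72-fold and 5.34-fold higher.

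The 3 genes of the list that were lower in MEP do not belong to iron uptake. Hmox1, the heme oxygenase that breaks heme down, was 5.97-fold lower (limma adjusted p = 5.12e-05). Cish, a feedback inhibitor induced by cytokine receptors through Stat5, was at 11.52, 9.98 and 11.37 in ST-HSC and at 9.16, 9.13 and 8.34 in MEP, and was 4.23-fold lower (limma adjusted p = 0.00376). Stat5b was 1.44-fold lower with the brightest of its 3 probes (adjusted p = 0.0215), but it was higher in MEP by 0.94 on the log2 scale with the mean of its probes, and its call was lost without ST-HSC array 3 (0.0708) or either numbered MEP array (0.0817 and 0.0799). The direction of Stat5b is therefore uncertain.

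Most enzymes of the heme pathway were higher in MEP. Of 9, 7 were higher in MEP, 1 was lower and 1 was not called, with a median difference of 1.94, and all 9 were above background on every array of both groups. Cpox was 9.74-fold higher in MEP, Uros 7.93-fold, Alad 6.59-fold and Ppox 3.84-fold, each an enzyme between the first and the last step of the pathway. Cpox was at 9.54, 9.87 and 10.21 in ST-HSC and at 12.82, 12.75 and 13.90 in MEP, without overlap (limma adjusted p = 2.03e-05).

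Alas1, the first enzyme in cells other than red cells, was at 12.62, 12.62 and 12.71 in ST-HSC and at 11.52, 11.81 and 10.87 in MEP. It was 2.38-fold lower in MEP (log2 difference -1.25, -1.94 to -0.56, limma adjusted p = 0.00944), and its adjusted p was 0.0564 with the mean of its probes. Alas2, the erythroid first enzyme, was at 6.50, 7.93 and 7.52 in ST-HSC and at 8.79, 8.29 and 9.32 in MEP. The arrays did not overlap, but the difference of 1.48 (0.13 to 2.84) did not pass the test (limma adjusted p = 0.0960), and it passed after normexp background correction (0.00999) and in the series table (0.0175).

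Of 7 globin genes and chaperone on the array, 1 was higher in MEP and 6 were not called. Hba-a1, an adult alpha globin, was at 11.19, 12.50 and 12.23 in ST-HSC and at 12.85, 12.17 and 13.80 in MEP, and Hbb-b1, an adult beta globin, was at 12.91, 13.94 and 13.82 in ST-HSC and at 14.20, 13.62 and 15.34 in MEP. In both genes the lowest MEP array lay below the highest ST-HSC array. The differences were 0.96 (95% interval -0.41 to 2.34, limma adjusted p = 0.290) and 0.83 (-0.37 to 2.02, 0.295), so that both a small decrease and a rise of about 2 log2 units lie within them. The copies of the alpha globin gene, Hba-a1 and Hba-a2, are nearly identical, and their probes may read both.

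Ahsp (Eraf on the array), the chaperone that keeps free alpha globin in solution, was at 7.77, 9.66 and 10.14 in ST-HSC and at 14.50, 14.43 and 14.84 in MEP. It was 42.3-fold higher in MEP (log2 difference 5.40, 3.58 to 7.23, limma adjusted p = 0.000279). The ST-HSC arrays of Ahsp spread over more than 2 log2 units, with array 2 lowest and the unnumbered array highest. The log2 difference was 4.69 without ST-HSC array 2 and 4.70 in the slide pair. In both groups the array numbered 2 was the lowest for Ahsp, Hba-a1, Hbb-b1, Alas2, Klf1 and Slc4a1. This order did not hold for all erythroid genes, as Car1 and Car2 were lowest on the unnumbered array of both groups.

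The red cell membrane list had the largest median of the erythroid lists. Of 27 genes, 23 were higher in MEP, 1 was lower and 3 were not called, with a median difference of 3.72. Add2, an adducin of the membrane skeleton, was at 3.87, 5.47 and 6.82 in ST-HSC and at 12.23, 11.94 and 11.95 in MEP, a rise of 101-fold (log2 difference 6.65, limma adjusted p = 3.41e-05). The Add2 difference was 5.89 without ST-HSC array 2 and 7.37 without the unnumbered ST-HSC array. Rhag, the glycoprotein partner of the Rh antigen, was at 3.54, 3.57 and 5.34 in ST-HSC and at 9.83, 9.53 and 9.88 in MEP, and was 48.4-fold higher (limma adjusted p = 1.29e-05). Its log2 difference was 6.19 without the unnumbered ST-HSC array.

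Ermap, an erythroid membrane protein of the immunoglobulin type, was at 6.47, 8.55 and 8.15 in ST-HSC and at 13.12, 12.97 and 13.33 in MEP. Its log2 difference of 5.42 (limma adjusted p = 0.000116) was 4.79 without ST-HSC array 2. In both Add2 and Rhag the unnumbered ST-HSC array was the brightest of the ST-HSC arrays, and the slide pair difference was smaller than the difference over all arrays, at 5.13 and 4.54.

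Car1, a carbonic anhydrase of red cells, was 26.3-fold higher in MEP (limma adjusted p = 1.33e-05), and its relative Car2 was 4.57-fold higher from a bright level in ST-HSC of 13.46, 13.68 and 12.75. Slc4a1, the anion exchanger band 3 that appears late in red cell maturation, was at 6.78, 8.62 and 8.64 in ST-HSC and at 9.16, 8.99 and 10.88 in MEP. Its difference of 1.67 (0.06 to 3.27) did not pass the test (limma adjusted p = 0.114), and was 1.05 without ST-HSC array 2. It passed under 5 alternatives, among them the fit with scan period as a block, at 2.15 (0.0267). Slc2a1, the glucose transporter Glut1 that mouse red cells lose after birth, was lower in MEP by 16.4-fold (limma adjusted p = 1.18e-07), the only gene of the list to fall.

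Of 25 platelet receptor and adhesion genes, 15 were lower in MEP, 2 were higher and 8 were not called, with a median difference of -1.65. Itgb3, the beta chain of the fibrinogen receptor, was at 11.12, 11.02 and 10.78 in ST-HSC and at 7.46, 7.92 and 7.58 in MEP. All MEP arrays were above background, and the groups did not overlap. Itgb3 was 9.98-fold lower in MEP (log2 difference -3.32, -3.92 to -2.72, limma adjusted p = 1.33e-06).

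Treml1, a receptor of platelet granule membranes, was 20.7-fold lower in MEP, and Esam, an adhesion molecule of platelets, endothelium and stem cells, was 14.7-fold lower. P-selectin (Selp) and the podoplanin receptor Clec1b were lower (limma adjusted p = 1.12e-06 and 0.000584) with 1 of the 3 MEP arrays above background, so that no exact fold is given. Itga2b, the partner of Itgb3 that encodes CD41, was at 9.73, 10.17 and 10.55 in ST-HSC and at 7.62, 7.89 and 6.73 in MEP, and was 6.67-fold lower (limma adjusted p = 0.00145). Cd9, a tetraspanin of platelets and stem cells, was 11.9-fold lower with its brightest probe, but its other probe was called in the opposite direction.

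Of the subunits of the von Willebrand receptor, Gp9 and Gp1bb were lower in MEP by log2 differences of -1.63 and -1.65 (limma adjusted p = 0.00232 and 0.000553), and the subunits were not tested against each other. Gp1ba was at 8.58, 8.60 and 8.09 in ST-HSC and at 7.85, 7.99 and 8.25 in MEP, with overlap, and its difference of -0.40 (-1.17 to 0.38, limma adjusted p = 0.453) turned to 0.29 with scan period as a block. Gp5 was at 7.40, 8.01 and 8.26 in ST-HSC and at 9.69, 9.82 and 9.13 in MEP, and was 3.15-fold higher (limma adjusted p = 0.0158). The call of Gp5 was lost without ST-HSC array 2 (adjusted p = 0.0713) or without the MEP arrays 1 (0.0532) or 2 (0.0578), and with slide as a random block (0.0590), and its difference of 1.66 was 0.95 with scan period as a block (0.297). The other gene of the list that was higher in MEP was Cd36, a scavenger receptor found on platelets and on red cell precursors, at 4.53-fold (limma adjusted p = 0.000730).

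Of 25 genes of platelet granules and cytoplasm, none was higher in MEP, 16 were lower and 9 were not called, with a median difference of -3.09. Pf4, the chemokine of alpha granules, was at 14.78, 14.73 and 14.52 in ST-HSC and at 8.92, 9.69 and 9.72 in MEP. It was 37.6-fold lower in MEP (log2 difference -5.23, -6.16 to -4.30, limma adjusted p = 1.15e-06), with its probe on chromosome 5 of mm9, 91202275 to 91202334. Mmrn1, which carries factor V in granules, was at 9.46, 9.59 and 9.13 in ST-HSC and above background on no MEP array, at least 39.6-fold lower.

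Cavin2, a caveolar protein abundant in platelets that the array lists as Sdpr, was 43.4-fold lower in MEP (limma adjusted p = 2.31e-06). Plek, the major protein kinase C substrate of platelets, was 24.1-fold lower, and Tbxas1, thromboxane synthase, was 23.1-fold lower. Ppbp, a chemokine of the Pf4 cluster, was at 7.56, 7.87 and 7.98 in ST-HSC and at 2.37, 4.40 and 5.28 in MEP, where 1 of 3 arrays was above background, and was lower with an adjusted p of 0.00249. Vwf, which encodes von Willebrand factor, was at 11.69, 11.67 and 11.44 in ST-HSC and at 9.61, 9.63 and 9.72 in MEP, a smaller decrease of 3.85-fold (limma adjusted p = 0.000113).

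**Figure D3:**
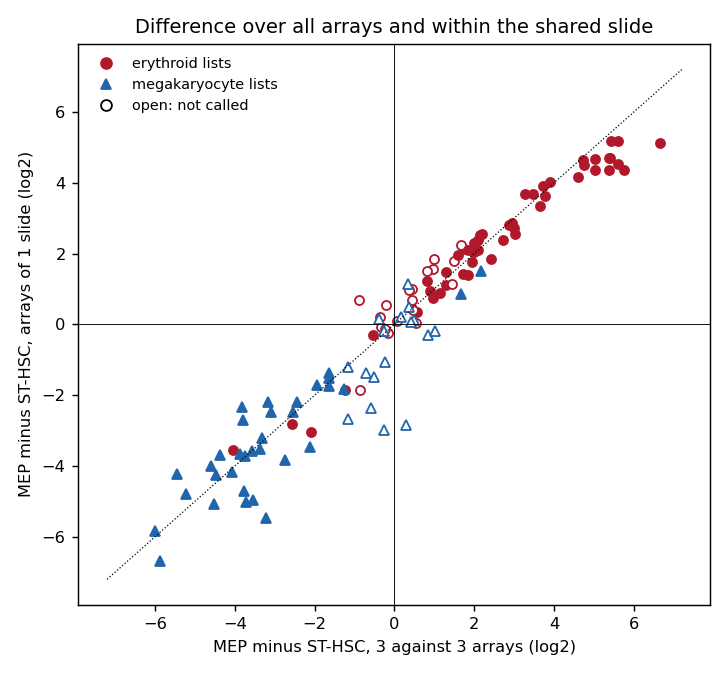
MEP minus ST-HSC difference in log2 intensity over all arrays (horizontal axis, 3 against 3) and between the unnumbered arrays of 1 slide (vertical axis) for the genes of the erythroid lists (circles) and the megakaryocyte lists (triangles). Filled symbols were called at a limma adjusted p under 0.05 and the dotted line marks equal differences; all filled points lie in the quadrants of equal sign, and the pair is part of the arrays on the horizontal axis.

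The same probes were read in the other 4 populations to place the ST-HSC and MEP levels, without a test. The values are means ± SD of 3 arrays, with 2 arrays for LT-HSC. Gata1 was at 8.36 ± 0.14 in ST-HSC and 12.08 ± 0.31 in MEP, and its other means ran from 5.36 in MPP to 10.13 in CMP. Klf1 was at 7.90 ± 0.72 in ST-HSC and 12.91 ± 0.11 in MEP, with LT-HSC at 10.24 ± 0.84 between them. Epor had the same order, with LT-HSC at 12.09 ± 0.58 above ST-HSC at 10.14 ± 0.30. Its lowest means, 7.38 ± 0.49 in MPP and 7.65 ± 0.16 in GMP, did not differ beyond their spread. The CMP means, 9.80 for Klf1 and 11.04 for Epor, also lay between ST-HSC and MEP. MEP was the highest of the populations for Gata1, Klf1, Epor and Ahsp.

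Itgb3 had its lowest mean in MEP, while Gp5 did not. Itgb3 was at 10.97 ± 0.17 in ST-HSC and at 7.65 ± 0.24 in MEP. Pf4 was at 14.68 ± 0.14 in ST-HSC, within the spread of the 14.62 ± 0.82 in CMP, and at 9.44 ± 0.45 in MEP, which lay within the spread of the 9.84 ± 0.53 in MPP. Itga2b was highest in CMP, at 11.72 ± 0.47, with ST-HSC at 10.15 ± 0.41 above MEP at 7.42 ± 0.61. Gp5 was at 9.55 ± 0.37 in MEP, from which CMP did not differ beyond the spread, and at 7.89 ± 0.44 in ST-HSC.

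**Figure D4:**
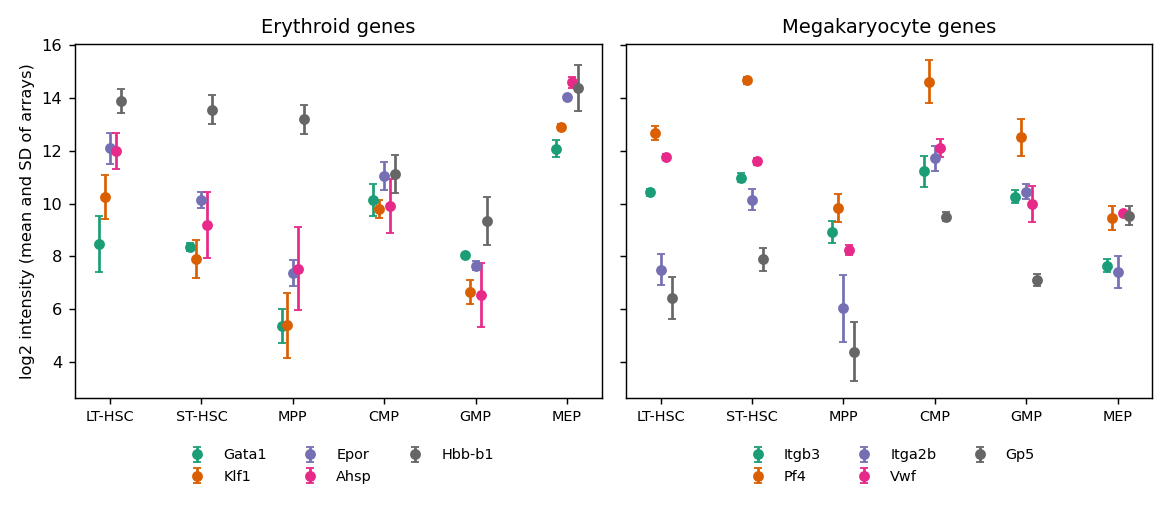
Mean log2 intensity (vertical axis, with SD as bars) of 5 erythroid and 5 megakaryocyte genes in the 6 populations (LT-HSC with 2 arrays, the others with 3). Each gene is read across populations and not against another gene; MEP is highest for Gata1, Klf1, Epor and Ahsp and lowest for Itgb3, and for Pf4 MEP and MPP do not differ beyond their spread.

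The labels were checked on the mRNA of the sort markers. All 6 were lower in MEP, although only surface protein was used for the sort. Cd34, the marker by which MEP is set apart from the other myeloid progenitors, was at 15.88, 15.79 and 15.98 in ST-HSC and at 8.74, 9.74 and 10.93 in MEP, 67.9-fold lower (limma adjusted p = 4.61e-07). Ly6a, which encodes the stem cell marker Sca-1, was 9.12-fold lower. Kit, whose protein was the basis of enrichment in both sorts, was 1.69-fold lower (adjusted p = 0.0272), a call that was lost without ST-HSC array 2 (0.0651), ST-HSC array 3 (0.1126), MEP array 1 (0.0825) or MEP array 2 (0.0703) and with scan period as a block (0.384). Flt3 and Fcgr3 were also lower by calls that single arrays decided, and the Fcgr3 difference of -2.22 was -1.20 without the unnumbered MEP array and -2.84 without MEP array 2. The call of Flt3 was lost whichever array was left out (adjusted p from 0.0554 to 0.123), and that of Fcgr3 without the ST-HSC arrays 2 (0.0820), 3 (0.0749) or unnumbered (0.0804) or the unnumbered MEP array (0.133).

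Of 27 genes known from stem cells, 23 were lower in MEP, 3 were not called and Eng was higher. Robo4, a receptor of stem cells and endothelium, was 64.6-fold lower and the bZIP factor Hlf 51.6-fold lower. Vldlr and the protein C receptor Procr were lower (limma adjusted p = 2.11e-08 and 2.16e-08) with 1 of 3 MEP arrays above background, and no exact fold is given for them. Hlf was at 12.28, 12.56 and 12.40 in ST-HSC and at 6.23, 7.03 and 6.92 in MEP (limma adjusted p = 7.82e-09). Eng, which encodes endoglin, was 1.58-fold higher (adjusted p = 0.0213), and its call was lost without ST-HSC array 2 (0.0892) or 3 (0.0607) or MEP array 1 (0.0638) or 2 (0.0542). With scan period as a block, the difference of Eng fell from 0.66 to 0.21 (0.456).

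Most cytokine receptors were lower in MEP. Of 17, 12 were lower, 4 were not called and Epor was higher. Csf2rb2 and Csf2rb, beta subunits of receptors of IL-3 and related cytokines, were 9.40-fold and 8.24-fold lower. The M-CSF receptor Csf1r was 7.55-fold lower. The G-CSF receptor Csf3r, above background on 2 of 3 MEP arrays, was also lower, by a log2 difference of -2.25 without the unnumbered MEP array, which was the one at background. Of 33 genes of replication and mitosis, 19 were higher in MEP and none was lower, with a median difference of 0.63. Ccne1, the cyclin of entry into S phase, was at 10.84, 10.87 and 11.11 in ST-HSC and at 14.52, 14.33 and 14.42 in MEP, 11.2-fold higher (limma adjusted p = 1.38e-07). The replication factors Cdc6 and Cdc45 were 4.95-fold and 3.51-fold higher, Ccnb1, a mitotic cyclin, was 3.54-fold higher, and the mitotic kinase Plk1 was 2.67-fold higher.

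Over all gene names with a symbol, the 10 largest fitted increases in MEP were, in no measured order, in Asb17, Add2, Slc26a1, Pdia2, Aldh1a7, Tmem56, Gpc4, Acsl6, Tsp50 and Agtr1a. Asb17, an ankyrin repeat protein with a SOCS box, was above background on no ST-HSC array, was at 8.86, 8.79 and 9.16 in MEP and was at least 78.9-fold higher (limma adjusted p = 1.09e-05). Slc26a1 and Pdia2 were above background on 2 of 3 ST-HSC arrays. Acsl6, an acyl-CoA synthetase, and Agtr1a, an angiotensin II receptor, were also above background on no ST-HSC array and were at least 58.9-fold and 53.6-fold higher. The 10 largest fitted decreases, also in no measured order, were in Cyp7b1, Vldlr, Nsg1, Ctla2a, F11r, Clec4a3, Cd34, Il15, Fhl1 and Procr. Ctla2a, an inhibitor of cathepsins, was at 15.26, 15.29 and 15.24 in ST-HSC and at 8.66, 8.96 and 9.32 in MEP, 77.9-fold lower (limma adjusted p = 6.14e-09). F11r, a junctional adhesion molecule of platelets and stem cells, was 77.0-fold lower. Cyp7b1, Nsg1, Clec4a3 and the cytokine gene Il15 were above background on no MEP array, so that their place among the 10 is not measured. Cyp7b1, Nsg1 and Il15 were at least 17.1-fold, 22.2-fold and 21.8-fold lower, while for Clec4a3, at 6.47, 9.22 and 8.53 in ST-HSC, no bound is given because ST-HSC array 2 moved it by over 1.5 times. Vldlr and Procr were above background on 1 and Fhl1 on 2 of 3 MEP arrays.

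Markers of granulocyte and monocyte progenitors moved with the comparison. Of 9 on the array, 8 were lower in MEP, and all 9 were above background on every ST-HSC array. Their mean log2 intensity was 12.28, 12.23 and 12.77 on the ST-HSC arrays numbered 2, 3 and unnumbered, and 10.03, 10.60 and 8.44 on the MEP arrays numbered 1, 2 and unnumbered. Mpo, myeloperoxidase, was at 18.13, 17.96 and 18.70 in ST-HSC and at 15.93, 16.42 and 13.63 in MEP, and was 7.69-fold lower in MEP (limma adjusted p = 0.00467). Its log2 difference of -2.94 was -2.09 without the unnumbered MEP array and -5.08 in the slide pair. Of 8 markers of mature neutrophils 1 was lower in MEP and 7 were not called. Their mean log2 intensity ran from 10.66 to 12.16 in ST-HSC, with the unnumbered array highest, and from 10.02 to 10.87 in MEP. The part of these cells' RNA in the lower megakaryocyte and stem cell genes was not tested.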

How the data were processed

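The deposited scanner files give a spot intensity (gProcessedSignal) already background-subtracted by Agilent Feature Extraction, version 9.5.3.1 for the numbered MEP arrays and 10.2.1.3 for the other arrays compared. A deposited series table of log2 values from the authors, quantile normalized, served as an alternative. The log2 of the intensity was normalized by quantiles across all 17 arrays with limma 3.58.1 (R 4.3.3). Then 1639 control spots and outlier spots were left out, spots of a probe were averaged (41174 probes) and the brightest probe stood for each gene name. Probe positions are those of the scanner files (mm9).

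A model with 1 mean per population was fitted by lmFit and eBayes to all arrays, so that the other populations share the estimate of spread, and the MEP minus ST-HSC contrast was adjusted by Benjamini-Hochberg over 28090 gene names. Of these, 8241 matched no RefSeq gene by accession, symbol or synonym. With no block in the fit, the p-values measure the spread between arrays of a population. That spread holds differences between pools of mice, slides and scan periods together.

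The comparison, its members and the gene lists were chosen with earlier results of these data known. A gene was named as changed only if it was called, its 3 against 3 arrays did not overlap, the slide pair had the same sign and the higher group was above background on all arrays. Array names that RefSeq now gives to another gene were replaced by the row of the listed gene (Tcf3, on the array as Tcfe2a). The text names the 10 largest fitted differences each way with a symbol, up to 5 each way per list and a fixed set of lineage genes. The genes of a count of 5 or fewer, Gp1bb, and Kel, Rhd and P2rx1 with the promoter windows, were named after their values were seen. Hbb-b2, Trim58, Tubb1, Myl9 and Bin2 are not analysed here, and some members that are counted are not reported here by name.

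Alternatives were the 75th percentile, normexp with an offset of 50, the series table, a filter on dim probes, scan period, slide and replicate number as blocks, the mean of all probes, each probe tested alone, the 6 arrays alone, LT-HSC left out, a log2 difference of at least 1 and each array left out. In simulated data with 27978 genes, all populations had the same means, except for 100 genes changed by 1 log2 unit and 100 changed by 2. The fit recovered 27.0% of the former and 68.0% of the latter, and it called 10 unchanged genes. Far fewer genes changed there than were called here, which makes the adjusted p stricter. The recovered shares therefore do not give the recovery in this comparison.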

Additional observations from a re-analysis of the deposited data

How the results depend on the processing

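The higher and lower counts of the erythroid genes stayed within 1.5 times those reported under every alternative run, as did the lower count of the megakaryocyte genes. Of all genes, 4248 were higher in MEP, against 2808 with only the 6 arrays normalized and fitted and 2527 when a log2 difference of at least 1 was also required. The 2 megakaryocyte genes higher in MEP became 1 with scan period as a block, 1 with slide as a random block and 1 with slide as a fixed block, the last chosen after seeing the data. Leaving out 1 array at a time gave 1 to 4 such genes, with 1 without ST-HSC array 2, MEP array 1 or MEP array 2 and 4 without the unnumbered ST-HSC array. Of 120 named genes, 114 were called. Stat5b turned to 0.94 with the mean of its probes and 3.00 when each probe was tested on its own. Of the genes not called, Lmo2 turned to 0.012 with the 75th percentile and ranged from -0.33 without MEP array 1 to 0.052 without the unnumbered MEP array, and Gp1ba turned to 0.29 with scan period and 0.23 with slide as a fixed block. The median of all genes was 0.11 with scan period as a block and -0.09 with the 75th percentile. The cause of these changes was not tested.

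ST-HSC and MEP arrays share only the number 2, and same-numbered arrays did not deviate together (r = -0.02, and 0.08 for the unnumbered pair). With the replicate block 4440 genes were higher and 4154 lower, 49 erythroid genes were higher and 31 megakaryocyte genes lower. Hba-a1 (adjusted p = 0.0144), Alas2 (0.0189) and Slc4a1 (1.58e-05) were then called, and Eng (0.0750) and Fcgr3 (0.0700) were not. Dim probes and the number of arrays limit the values: 15520 gene names were above background on every array of ST-HSC or of MEP.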

Other observations

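Markers of mast cells and of lymphoid and endothelial cells were also read in ST-HSC and MEP. Of 8 markers of mast cells and basophils, 7 were lower in MEP and 1 was higher, and all 8 were above background on the 3 ST-HSC arrays. Gzmb, granzyme B, was above background on no MEP array. Mcpt8, a basophil protease, was at 11.03, 11.07 and 10.93 in ST-HSC and at 6.98, 7.40 and 4.82 in MEP, lower with 2 of 3 MEP arrays above background (limma adjusted p = 5.54e-05). Its log2 difference was -3.82 without the unnumbered MEP array, which was the one at background. Cpa3, the mast cell carboxypeptidase, was 24.2-fold lower. The gene of this list that was higher in MEP was Il1rl1, the receptor for IL-33, at 4.75-fold (limma adjusted p = 4.36e-05).

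Of 9 B cell genes, Cd79b and Ighm were lower in MEP, at 7.72-fold and 3.27-fold, and Igll1, a surrogate light chain, was higher. Igll1 was at 2.91, 2.06 and 4.12 in ST-HSC and at 6.24, 5.57 and 7.01 in MEP, higher with 2 of 3 ST-HSC arrays above background (limma adjusted p = 0.00171). Pax5, which defines the B lineage, was not called (adjusted p = 0.258) and was above background on no MEP array. Of the 9 B cell genes, however, 5 were above background on all 3 ST-HSC arrays and 6 on all 3 MEP arrays. Of 8 T and NK cell genes 3 were lower in MEP and 1 was higher. Of 7 genes of lymphoid priming 3 were lower, among them Flt3 with the unstable call given above, and 1 was higher. Of 4 endothelial genes 2 were lower and 1 was higher. Over all gene names 14.5% were lower and 15.1% higher, and lists this short do not give a share to compare. The median difference was -1.03 for T and NK cell genes and -1.09 for lymphoid priming genes, but -0.10 and 0.12 in the slide pair. Cdh5, the cadherin that defines endothelium, was above background on no array of either group. The other endothelial genes were above background on all 3 ST-HSC arrays. Emcn, which stem cells also express, was lower in MEP with 1 of 3 MEP arrays above background (limma adjusted p = 7.82e-09). Kdr was lower with no MEP array above background, and Plvap was higher in MEP by 2.25 on the log2 scale.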
